A study of Mus musculus with 12 samples.

Results

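Cytotoxic granule genes encode the contents and the release machinery of the secretory granules with which lymphocytes kill target cells, together with the death ligand that acts beside them. The 9 genes described here, chosen by name with earlier results of these data known, are Srgn, Prf1, Gzma, Gzmb, Gzmk, Gzmm, Ctsw, Nkg7 and Fasl. They stand among 55487 genes in the deposited count table, of which 15905 passed a filter on low counts and were tested. All 9 passed that filter, although Gzmk passed it only through the effector libraries, so that 8 passed in naive cells alone.

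RNA was sequenced from CD4+ T cells that had been isolated by cell sorting from the spleen and the peripheral lymph nodes of mice. Naive cells were sorted as CD62L+ CD44lo and effector cells as CD62L- CD44hi, of wild-type (WT) and Rinl-KO (KO) mice, and the purpose was to learn what Rinl does in these cells. The Rinl protein, a relative of the Ras and Rab interactors, acts on small GTPases of endosome traffic. The 4 groups held 3 libraries each: WT naive (libraries 1 to 3), WT effector (4 to 6), KO naive (7 to 9) and KO effector (10 to 12). No treatment is named, and the sources used here give no age, no altered stretch of Rinl, no strain background and no number of animals behind a library. Nothing says that the libraries came from separate animals, so p-values measure only the spread between libraries, which may be technical.

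CD4+ T cells are best known as helper cells, while granule killing is the trade of CD8+ T cells and natural killer (NK) cells. Some antigen-experienced CD4+ cells, mainly of the Th1 kind, also make granules. In such a granule perforin and the granzymes are packed on the proteoglycan serglycin. On contact with a target the granule fuses with the plasma membrane, perforin opens the target membrane, and the granzymes enter and cleave proteins that lead to cell death. Fas ligand kills by a separate route, by binding the death receptor Fas on the target surface.

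Total counts ranged from 11606251 to 24320247 per library. Levels are given as CPM, that is, counts put on one library size with TMM factors, and levels of different genes are compared only as FPKM, which also divides by gene length and comes from the authors' table. Rinl read 298, 299 and 285 CPM in the WT naive libraries and 32.6, 32.2 and 34.4 CPM in the KO naive ones. In effector cells it read 437, 451 and 463 CPM in WT and 45.8, 47.5 and 49.4 CPM in KO. Rinl was thus lower in every KO library, by a log2 fold change of -3.16 in naive and -3.24 in effector cells (edgeR quasi-likelihood test, adjusted p = 4.3e-23 and 2e-23). The summed level of 8 markers of CD4+ T cells, among them Cd4 and Cd3e, lay between 3627 and 4025 CPM in all 12 libraries.

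The members lie on 6 chromosomes (GRCm38 coordinates of the deposited table). Gzma (ENSMUSG00000023132) at chr13:113093825-113100981 and Gzmk (ENSMUSG00000042385) at chr13:113171608-113225908, both on the minus strand, are neighbours. Gzmb (ENSMUSG00000015437) lies at chr14:56258838-56262260 on the minus strand, beside other granzyme genes. Prf1 (ENSMUSG00000037202) at chr10:61297833-61304680, Srgn (ENSMUSG00000020077) at chr10:62493833-62527451 and Gzmm (ENSMUSG00000054206) at chr10:79689020-79695261 share a chromosome. Fasl (ENSMUSG00000000817) lies at chr1:161780689-161788495 and Ctsw (ENSMUSG00000024910) at chr19:5465043-5468507, both on the minus strand. Nkg7 (ENSMUSG00000004612) at chr7:43437073-43438249 lies 14.6 Mb from Rinl. The span of Ctsw overlaps that of Fibp, and the span of Gzmk that of Esm1, each on the opposite strand. The library kit keeps strand, but the sources used here give no strand setting of the counting, so reads of these pairs may not be fully separated.

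Stretches before the start sites of 5 members are shown because their levels contrast most in the results: Nkg7, Gzma, Gzmb and Gzmk, which were near 0 in naive cells, and Prf1, which was higher there. They were read from RefSeq's promoter table (GRCm38.p6), which held 10 entries for 8 of the 9 members and none for Ctsw. Capitals mark matches, on either strand, to motifs of 3 kinds of factor that act in T cells. The motif of T-box factors such as T-bet was TCACACC, which reads GGTGTGA on the other strand, that of RUNX factors was TGTGGT, which reads ACCACA on the other strand, and that of AP-1 was TGANTCA. Each is printed 5′ to 3′ on the strand of its gene.
Nkg7 (chr7:43436888-43437072, plus strand): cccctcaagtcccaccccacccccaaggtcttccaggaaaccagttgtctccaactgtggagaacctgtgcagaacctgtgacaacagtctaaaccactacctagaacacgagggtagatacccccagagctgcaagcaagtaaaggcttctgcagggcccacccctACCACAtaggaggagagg
Gzma (chr13:113100982-113101231, minus strand): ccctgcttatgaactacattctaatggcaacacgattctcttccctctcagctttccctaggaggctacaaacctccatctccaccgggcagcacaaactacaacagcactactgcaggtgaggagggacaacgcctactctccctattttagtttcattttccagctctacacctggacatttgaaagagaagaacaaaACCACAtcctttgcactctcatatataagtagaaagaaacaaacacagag
Gzmb (chr14:56262335-56262584, minus strand): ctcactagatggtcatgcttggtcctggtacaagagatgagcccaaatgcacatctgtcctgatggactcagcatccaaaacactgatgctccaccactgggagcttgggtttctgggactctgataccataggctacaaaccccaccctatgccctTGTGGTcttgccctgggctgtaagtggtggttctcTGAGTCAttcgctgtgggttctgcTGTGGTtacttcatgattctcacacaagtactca
Gzmk (chr13:113180966-113181215, minus strand): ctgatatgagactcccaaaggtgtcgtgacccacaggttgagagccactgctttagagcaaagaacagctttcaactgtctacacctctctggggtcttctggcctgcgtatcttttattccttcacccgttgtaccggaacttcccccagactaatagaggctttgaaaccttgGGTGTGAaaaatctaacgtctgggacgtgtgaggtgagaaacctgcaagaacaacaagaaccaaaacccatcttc
Prf1 (chr10:61297586-61297832, plus strand): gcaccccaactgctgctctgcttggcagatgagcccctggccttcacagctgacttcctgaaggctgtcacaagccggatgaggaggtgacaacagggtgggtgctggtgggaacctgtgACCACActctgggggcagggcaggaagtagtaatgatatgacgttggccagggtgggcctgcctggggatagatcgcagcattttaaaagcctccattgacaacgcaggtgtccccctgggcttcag

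Of these stretches, that of Gzmb held an AP-1 match at -58 from the start site and RUNX matches at -93 and -34. The stretches of Gzma, Nkg7 and Prf1 each held a RUNX match, at -50, -83 and -130, and that of Gzmk a T-box match at -75. The RefSeq start of Gzmk lies inside the longer span that the deposited table gives this gene. Over the full windows, from 250 bases before to 50 after the start, 3 of the 10 member entries (Gzmk, 1 of 2 starts of Gzmm, and Nkg7) held the T-box motif, against 3.98% of 32851 promoters. The RUNX motif was in 6 of 10 entries, against 16.8% of promoters, and the AP-1 motif in 1 of 10, against 7.81%. A match describes letters and shows no binding.

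The first result is where the granule genes were expressed. Of the 8 genes that passed the low-count filter in naive libraries alone, 7 were higher in effector than in naive cells of WT mice and 1, Prf1, was lower, and the same numbers held in KO mice. Gzmk, the other member, was also higher, but it was tested only because its effector counts are high, so it is not counted here. Among all tested genes 56.2% were called in WT (30.2% higher, 25.9% lower) and 58.4% in KO (31.6% higher, 26.8% lower), so these populations differ widely and the number of members called has to be read against that. The median log2 fold change of these 8 genes was 2.07 in WT and 1.94 in KO, beside 0.0064 and 0.0085 over all tested genes. In bulk RNA, fewer cells that carry a transcript and less of it per cell cannot be told apart.

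Srgn, the packing proteoglycan, was the most abundant member in every group: 81.4 ± 7.23 FPKM in WT naive and 232 ± 5.93 FPKM in WT effector cells (SD, n = 3), and 79.7 ± 3.33 and 259.7 ± 22.3 FPKM in KO. Its level was 129.9, 148 and 153 CPM in the WT naive libraries and 409, 421 and 398 CPM in the WT effector ones. The rise in log2 terms was 1.51 ± 0.063 (SE) in WT and 1.71 ± 0.062 in KO (edgeR, adjusted p = 1.9e-14 and 1.9e-15). Serglycin is not confined to killer cells, and its transcript was well above 0 in naive cells too.

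Prf1 encodes perforin, the pore former without which granzymes do not reach the target cytosol, and it went the other way. WT naive libraries read 47.1, 49.3 and 50.1 CPM and WT effector libraries 17.1, 23.0 and 19.1 CPM. In KO the naive libraries read 48.9, 48.6 and 43.3 CPM and the effector ones 17.2, 12.1 and 18.0 CPM. Every naive library of either genotype was above every effector library, so that the naive mean was 247% of the effector mean in WT and 297% in KO. The log2 fold change from naive to effector was -1.31 ± 0.12 in WT and -1.60 ± 0.12 in KO (edgeR, adjusted p = 8.6e-08 and 7.8e-09). Among the markers of other cells, the summed level of the CD8 T cell genes Cd8a and Cd8b1 also fell, from 19.5 to 20.8 CPM in WT naive to 5.52 to 6.70 CPM in WT effector libraries. Nearly all of it was Cd8b1, since Cd8a averaged 0.353 CPM in WT naive and 0.135 CPM in WT effector cells. Whether this sum has a part in the Prf1 difference was not tested.

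The granzymes are serine proteases that differ in the residue they cut after. Gzmb cuts after aspartate and activates caspases, Gzma and Gzmk have trypsin-like specificity, and Gzmm prefers methionine or leucine. Gzmb read 0.263, 0.591 and 0.415 CPM in WT naive and 18.0, 17.0 and 20.1 CPM in WT effector libraries, a log2 fold change of 5.42 ± 0.23 (edgeR, adjusted p = 2.6e-15). Gzma read 0.789, 0.752 and 0.663 CPM against 9.03, 23.7 and 28.3 CPM, a log2 fold change of 4.76 ± 0.53 (edgeR, adjusted p = 4.1e-05). Both were close to 0 in every naive library and above all naive libraries in every effector one, with Gzma spread more widely over the effector libraries.

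Gzmk had 1, 1 and 0 counts in the WT naive libraries and read 9.15, 6.19 and 4.80 CPM in the WT effector ones. Over the group 2 counts stood against 313, a ratio of 167 after scaling for library size (exact 95% interval 45.9 to 1386, counting error only). In KO 2 counts stood against 485, a ratio of 321 (88.5 to 2661). The fitted log2 fold changes, 7.15 and 8.04, depend on the prior count used for such low values. Gzmm read 2.03, 2.98 and 3.80 CPM in WT effector libraries, against 1.05, 1.13 and 1.49 CPM in naive cells (log2 fold change 1.29 ± 0.25, edgeR, adjusted p = 0.00012). In KO the rise of Gzmm was 0.74 ± 0.25 (edgeR, adjusted p = 0.013), and it missed the threshold without library 7 (adjusted p = 0.054) or without library 11 (adjusted p = 0.067).

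Nkg7, a small membrane protein of the granule that is needed for efficient release, had the widest contrast of the members that were not at the limit of counting. It read 0.526, 0.698 and 0.663 CPM in WT naive libraries and 132, 154 and 157 CPM in WT effector libraries. The log2 fold change was 7.87 ± 0.15 in WT and 6.25 ± 0.13 in KO (edgeR, adjusted p = 2.3e-19 and 6.5e-19), and the naive level was 0.426% and 1.32% of the effector level. Ctsw, cathepsin W, a cysteine protease known mainly from CD8+ T and NK cells, was already present in WT naive cells at 50.1, 47.9 and 58.2 CPM. In WT effector libraries it read 124, 141 and 129 CPM, a log2 fold change of 1.35 ± 0.066 in WT and 0.72 ± 0.065 in KO (edgeR, adjusted p = 8.4e-14 and 2.5e-09). Fasl read 5.26, 7.04 and 6.38 CPM in WT naive and 36.2, 39.6 and 39.2 CPM in WT effector libraries, a log2 fold change of 2.62 ± 0.11 in WT and 2.18 ± 0.10 in KO (edgeR, adjusted p = 4.2e-16 and 6.8e-15).

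**Figure D1:**
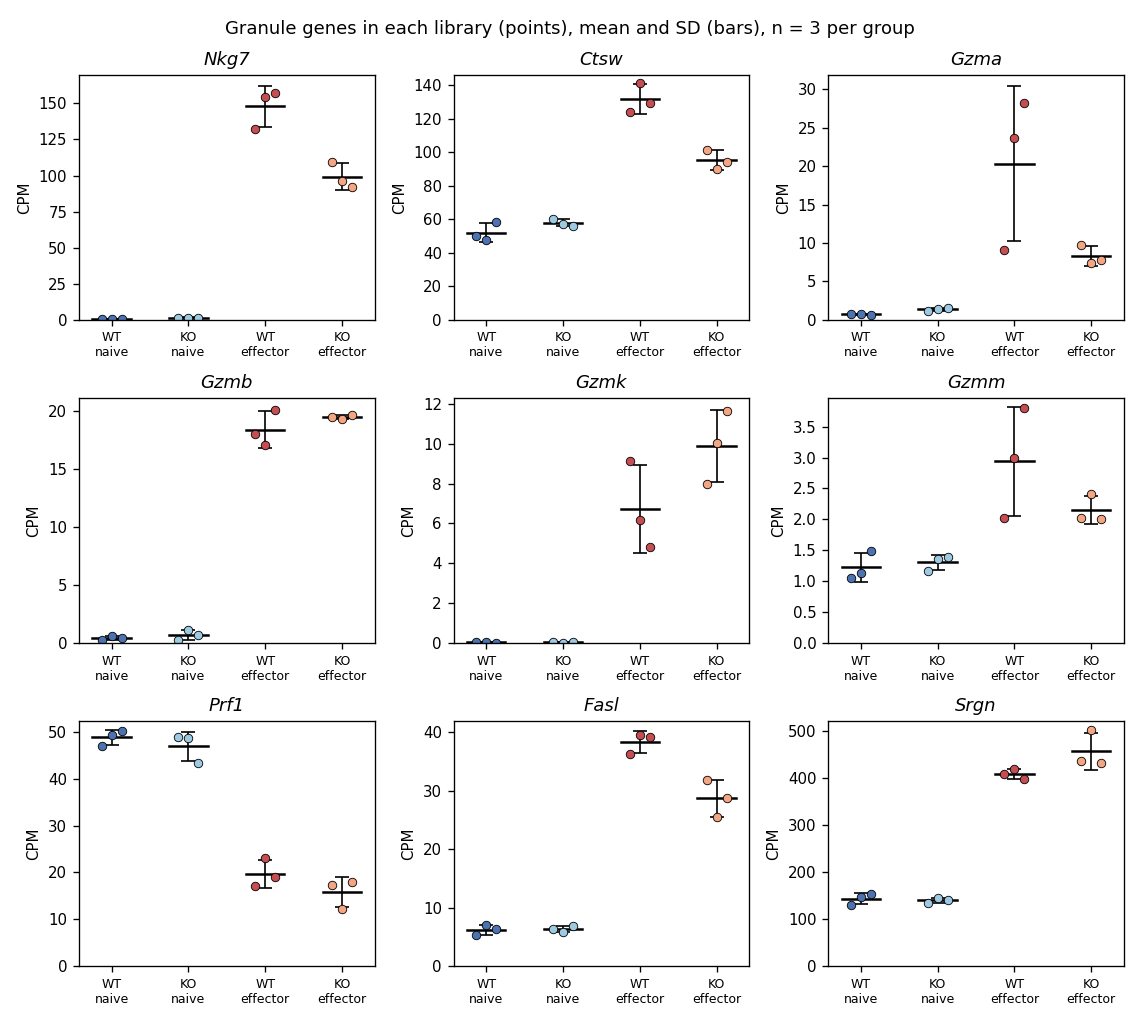
TMM-normalised CPM (vertical axis, a scale of its own in each panel) of the 9 granule genes in each of the 12 libraries; points are libraries, horizontal bars are means and error bars are SD, n = 3 per group. Prf1 is the only member whose naive points lie above its effector points; Nkg7, Ctsw and Fasl have all 3 KO effector points below all 3 WT effector points.

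Compared per length, naive and effector cells held the granule transcripts in different orders. In WT naive cells the order in FPKM was Srgn (81.4), Ctsw (41.6), Prf1 (18.7), Fasl (3.19), Gzmm (0.944), Gzma (0.724), Nkg7 (0.709), Gzmb (0.292) and Gzmk (0.0257). The libraries of Gzma and Nkg7 overlapped in this order, and those of all other neighbours were separate. In WT effector cells the order was Srgn (232), Nkg7 (167), Ctsw (105), Gzma (20.1), Fasl (19.7), Gzmb (12.7), Prf1 (7.58), Gzmk (4.89) and Gzmm (2.27). Here the libraries of Gzma, which ran from 8.93 to 28.0 FPKM, overlapped those of Fasl and Gzmb, and Prf1 overlapped Gzmk, so these neighbours did not differ beyond their spread. In KO effector cells Fasl (14.8 FPKM) and Gzmb (13.5) overlapped, as did Gzma (8.23) with Gzmk (7.21) and Gzmk with Prf1 (6.08).

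**Figure D2:**
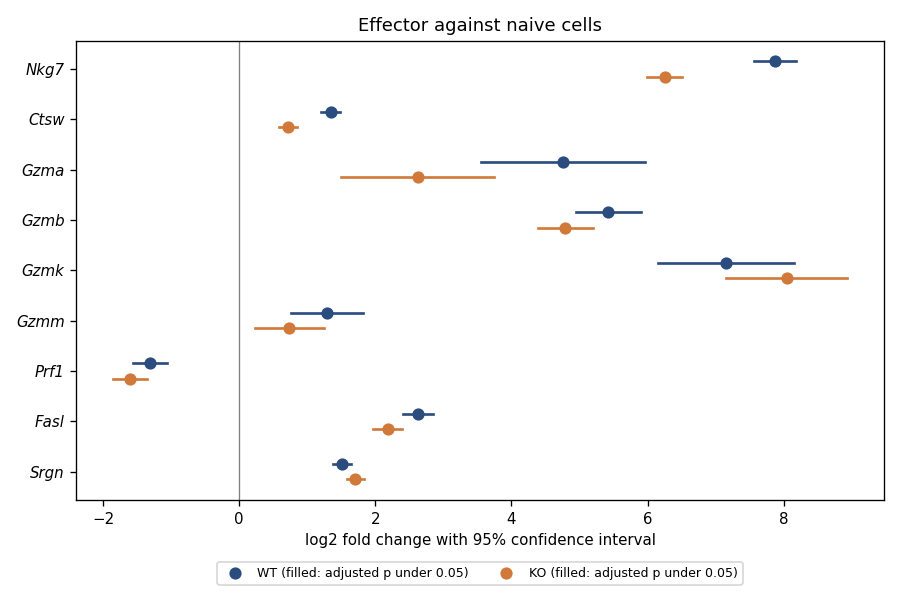
Log2 fold change of effector against naive cells (horizontal axis) with its 95% confidence interval for each granule gene in WT and in KO mice, 3 libraries per group; all points are filled because all passed an adjusted p of 0.05. Points lie right of 0 for 8 genes and left of 0 for Prf1, from -1.60 in KO for Prf1 to 8.04 in KO for Gzmk. Gzmk was tested only through its effector counts, and its fitted values depend on the prior count.

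The make-up of the granzyme pool differed between effector libraries. As a share of the summed FPKM of Gzma, Gzmb, Gzmk and Gzmm, Gzma took 55.8% and 57.9% in WT libraries 5 and 6 but 30.1% in WT library 4. In the KO libraries 10, 11 and 12 it took 31.6%, 24.6% and 24.6%. Library 4 is labelled WT and in this measure sat among the KO libraries.

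Gzmk moved in the opposite direction, at 10.7% and 7.24% in WT libraries 5 and 6, 22.5% in WT library 4, and 19.1%, 24.5% and 27.1% in the KO libraries. Gzmb took 42.1%, 28.0% and 28.8% of the pool in the WT libraries and 44.2%, 44.7% and 43.4% in the KO ones. The summed level of the 4 granzymes was 29.6, 41.9 and 48.3 FPKM in WT and 30.6, 29.8 and 31.3 FPKM in KO effector libraries. A pool dominated by Gzma was thus seen in 2 of 3 WT effector libraries and in none of the 3 KO ones. The groups overlapped through library 4 in the Gzma share, the Gzmk share and the summed level. In the Gzmb share they did not overlap, as every KO library was above every WT one, and this was not tested. Perforin transcript was 9.19 to 9.99 times the summed granzyme FPKM in WT naive libraries and 0.152 to 0.222 times in WT effector libraries, with no overlap.

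**Figure D3:**
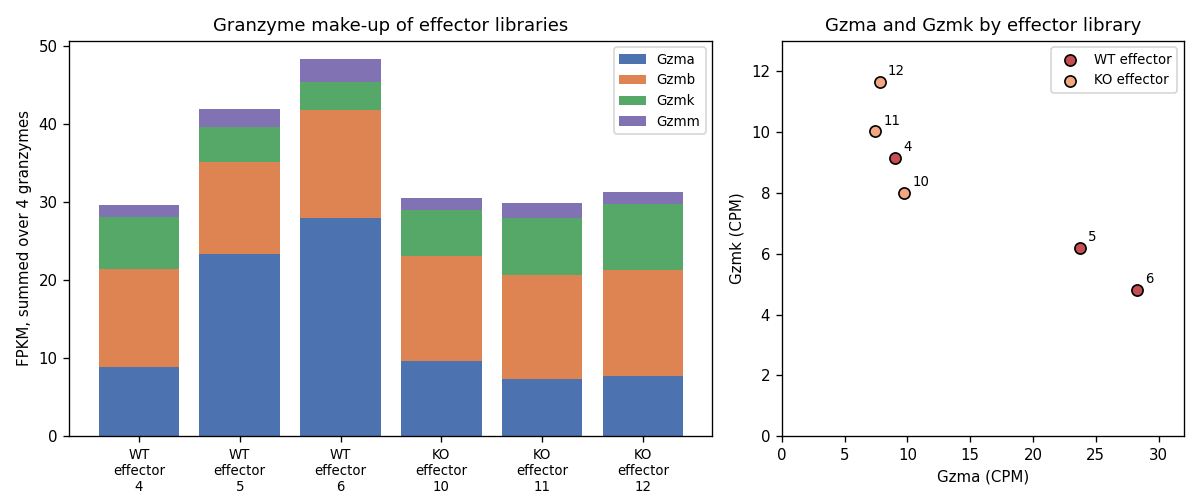
Left, FPKM of 4 granzyme genes stacked for each effector library (vertical axis, summed FPKM); right, Gzmk against Gzma in CPM for the same 6 libraries, numbered. WT libraries 5 and 6 have 23.7 and 28.3 CPM of Gzma and the lowest Gzmk, while WT library 4, at 9.03 CPM, lies with the KO libraries.

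Next, KO was compared with WT within each cell type, the comparison that the study was designed for. In effector cells 3 granule genes were lower in KO, Nkg7, Ctsw and Fasl, and none was higher. Among all tested genes 3.16% were called in this comparison and 1.72% were called lower. At an unadjusted p under 0.05, 7 of the 9 passed, where 16.1% of all tested genes did. DESeq2 called 4 members and 3.84% of all genes to which it gave an adjusted p, and limma-voom called 3 members and 3.4% of all tested genes. The median log2 fold change of the 9 members was -0.42, beside 0.0022 over all tested genes. All 3 KO libraries lay below all 3 WT libraries for the same 3 genes, and above them for Srgn, where 8.73% of all tested genes were separated in the lower and 9.18% in the higher direction.

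Nkg7 read 132, 154 and 157 CPM in the WT effector libraries and 109.5, 96.5 and 91.7 CPM in the KO ones. Its highest KO library was below its lowest WT library, and the log2 fold change was -0.57 ± 0.071 (edgeR, adjusted p = 0.00011). Ctsw read 124, 141 and 129 CPM in WT and 102, 90.2 and 94.3 CPM in KO, again without overlap, with a log2 fold change of -0.46 ± 0.063 (edgeR, adjusted p = 0.00016). The call of Ctsw held in all 20 alternative analyses, and that of Nkg7 in 19 of 20, the exception being limma on log2 of FPKM plus 0.1 (adjusted p = 0.13). Fibp, which overlaps Ctsw on the other strand, had a log2 fold change of -0.08 (edgeR, adjusted p = 0.57).

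Fasl read 36.2, 39.6 and 39.2 CPM in WT and 31.9, 25.6 and 28.7 CPM in KO effector libraries, a log2 fold change of -0.42 ± 0.087 (edgeR, adjusted p = 0.0073). Its groups did not overlap, but the call rested on library 11. Without that library the log2 fold change was -0.33 and the adjusted p 0.077 (edgeR), and limma gave an adjusted p of 0.06 on log2 of FPKM plus 1 and of 0.11 with 0.1 added instead.

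The granzymes and perforin did not pass the threshold in effector cells. Gzma had the largest difference of all members, a log2 fold change of -1.29 ± 0.36 (edgeR, adjusted p = 0.11), with 9.03, 23.7 and 28.3 CPM in WT against 9.74, 7.41 and 7.79 CPM in KO. The WT group was split, and the low library 4 overlapped the KO group. Without library 4 the log2 fold change of Gzma was -1.65 (edgeR, adjusted p = 3.4e-08), and with DESeq2 on all libraries the adjusted p was 0.031.

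Gzmk had the higher mean in KO, at 9.15, 6.19 and 4.80 CPM in WT and 8.002, 10.01 and 11.6 CPM in KO (log2 fold change 0.55 ± 0.19, edgeR, adjusted p = 0.14). Library 4 was the highest WT library here, and without it the log2 fold change was 0.85 (edgeR, adjusted p = 0.0099). Leaving out library 4 therefore brought the called members from 3 to 5, with Gzma lower and Gzmk higher. Gzmb, at 18.0, 17.0 and 20.1 CPM in WT and 19.5, 19.3 and 19.6 CPM in KO, had a log2 fold change of 0.08 with a 95% interval from -0.18 to 0.34 (edgeR, adjusted p = 0.82).

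Gzmm, at 2.03, 2.98 and 3.80 CPM in WT and 2.03, 2.41 and 2.01 CPM in KO, had a log2 fold change of -0.44 ± 0.23 (edgeR, adjusted p = 0.36). Prf1 had one of -0.34 ± 0.13 (edgeR, adjusted p = 0.21), with library 11 the lowest at 12.1 CPM. Srgn read 409, 421 and 398 CPM in WT and 436, 503 and 433 CPM in KO, a log2 fold change of 0.16 ± 0.060 (edgeR, adjusted p = 0.17). With no filter on low counts Prf1 (adjusted p = 0.0044), Gzmk (0.02) and Srgn (0.021) passed the threshold in edgeR.

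In naive cells no granule gene was called between KO and WT by edgeR, while 1.18% of all tested genes were. At an unadjusted p under 0.05, 2 of the 9 genes passed, Nkg7 and Ctsw, where 11.9% of all tested genes did. DESeq2 called 1 of 9, Nkg7, and 1.88% of all genes to which it gave an adjusted p, and limma-voom called 0 of 9 and 1.18% of all tested genes. The KO naive libraries lay above all WT ones for 2 members, Nkg7 and Gzma, where 10.7% of all tested genes were separated in that direction. The median log2 fold change of the members was 0.12, beside 0 over all tested genes. These counts and this median include Gzmk, which passed the low-count filter only through effector libraries. It had 2 counts in WT and 2 in KO naive cells, so its naive comparison says little.

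Nkg7 read 0.526, 0.698 and 0.663 CPM in WT and 0.950, 1.40 and 1.59 CPM in KO naive libraries, from 8 to 33 counts a library. The log2 fold change was 1.05 ± 0.33 (edgeR, adjusted p = 0.16). The adjusted p was 0.042 with DESeq2, 0.019 with no filter on low counts and 0.037 with limma on log2 of FPKM plus 0.1, so whether Nkg7 is called in naive cells depends on the test and the filter. Gzma read 0.789, 0.752 and 0.663 CPM in WT and 1.12, 1.36 and 1.59 CPM in KO (log2 fold change 0.85 ± 0.79, edgeR, adjusted p = 0.75). The more abundant members differed little, with log2 fold changes of 0.16 for Ctsw, 0.02 for Fasl, -0.03 for Srgn and -0.05 for Prf1 (edgeR, adjusted p of 0.32 to 0.97), and their 95% intervals lay between -0.27 and 0.31.

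**Figure D4:**
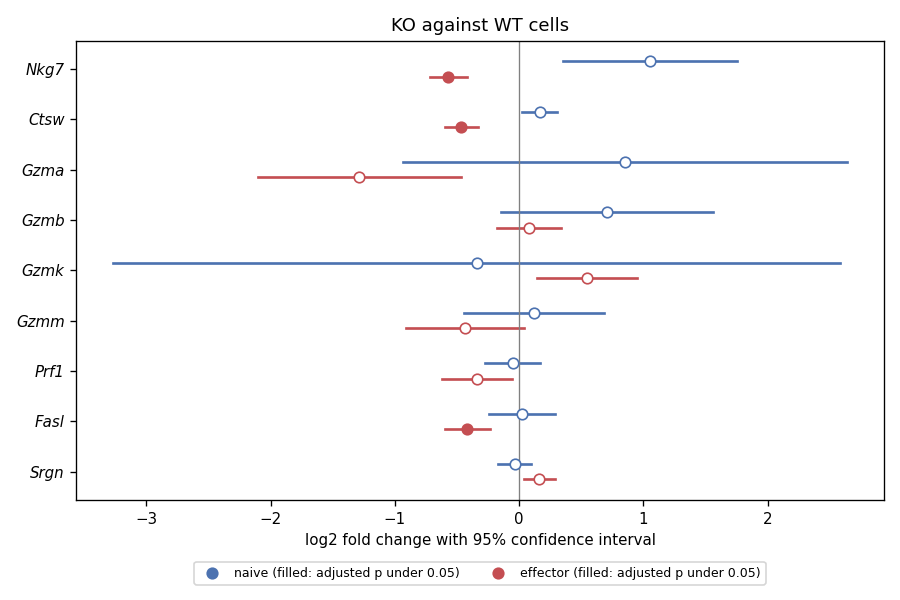
Log2 fold change of KO against WT (horizontal axis) with its 95% confidence interval for each granule gene in naive and in effector cells, 3 libraries per group; filled points passed an adjusted p of 0.05 and open points did not. Nkg7, Ctsw and Fasl are filled in effector cells, at -0.57, -0.46 and -0.42, and no naive point is filled.

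Whether the effect of KO differed between the cell types was tested as an interaction. Of the 9 genes 1, Ctsw, differed, where 0.145% of all tested genes did. Gzmk is among the 9, but with 2 counts in WT and 2 in KO naive cells its difference says little. The KO effect on Ctsw was lower in effector than in naive cells by a log2 difference of -0.63 ± 0.093 (edgeR, adjusted p = 0.0027), and this call was lost with limma on log2 of FPKM plus 1 (adjusted p = 0.076) or plus 0.1 (adjusted p = 0.087). For Nkg7 the difference was -1.62 ± 0.34 (edgeR, adjusted p = 0.06), and 6 of 19 alternatives called it. The other 7 members gave adjusted p of 0.34 to 0.92 in edgeR, so a difference between the cell types was not shown for Fasl (-0.44 ± 0.15, adjusted p = 0.34).

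The genes around the granule proteins were then examined, in lists likewise chosen with earlier results of these data known. Their counts have to be read against the shares of all tested genes: in WT effector against naive cells 30.2% were called higher and 25.9% lower, and in effector KO against WT 3.16% were called and 1.72% were called lower. Of 22 genes of granule transport, docking and fusion, 21 were tested, and in WT 14 were higher and 2 lower in effector cells. The rises included Stx11, a syntaxin of granule fusion (log2 fold change 4.72, from 2.06 to 54.3 CPM), Sytl3 (5.49), Sytl2 (1.502) and Syt11 (2.13). Both Sytl2 and Sytl3, synaptotagmin-like proteins that bind RAB27, were lower in KO effector cells (-0.47 and -0.49, edgeR, adjusted p = 0.00061 and 0.007), and they were the 2 of 21 called there. The call of Sytl3 was lost without library 11 (adjusted p = 0.066). The median log2 fold change of these 21 genes in effector KO was 0.02.

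Of 12 genes for granule maturation, 11 were tested, and in WT effector cells 7 were higher, such as Ctsb (1.22) and Ctsd (0.49), and 2 lower, Ctsl (-1.30) and Igf2r (-0.30). Ctsh, 1 of the 7, passed the low-count filter only through effector libraries. In KO effector cells 1 was higher, Ctsl (0.71, edgeR, adjusted p = 0.0037), and 1 lower, Ctsd (-0.23, edgeR, adjusted p = 0.0068), both lysosomal cathepsins. All 7 tested genes of 8 for inhibitors of granule proteases were higher in WT effector cells, among them Serpina3g (7.01) and Serpinb9 (0.85), the inhibitor of granzyme B. Serpinb1a, 1 of the 7, passed the filter only through effector libraries. In KO effector cells 1 of the 7 was higher, Cst7 (0.35 ± 0.072, edgeR, adjusted p = 0.0073), which encodes cystatin F, an inhibitor of granule cathepsins. It averaged 74.2 CPM in WT and 94.7 CPM in KO, and the call was lost without library 6 or library 11 (highest adjusted p = 0.061).

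Of 12 genes of the death receptor route, 7 were higher in WT effector cells, such as the death ligand genes Tnf (1.32) and Tnfsf10 (1.16), and 2 were lower. In effector KO none of the 12 was called by edgeR, DESeq2 or limma-voom. In edgeR 2 of the 12 had an unadjusted p under 0.05, where 16.1% of all tested genes did. In naive KO none of the genes of transport, maturation, inhibitors and the death receptor route was called by any of these tools. At an unadjusted p under 0.05 in edgeR, 3 of 21, 1 of 11, 1 of 7 and 2 of 12 tested genes passed, where 11.9% of all tested genes did.

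Of 16 regulators of the cytotoxic programme, 13 were higher and 2 lower in WT effector cells, and the same numbers held in KO. Tbx21 and Zeb2, 2 of the 13, passed the filter only through effector libraries. Tbx21, which encodes T-bet, rose from 0.331 to 93.4 CPM in WT, and Tcf7, a factor of the naive state, fell by a log2 fold change of -1.04. In KO effector cells 4 of the 16 were lower and none higher, where 1.72% of all tested genes were lower. Tbx21 averaged 93.4 ± 13.9 CPM in WT and 61.8 ± 3.35 CPM in KO (SD, n = 3), with a log2 fold change of -0.59 ± 0.079 (edgeR, adjusted p = 0.00019). Zfp683, which encodes Hobit (-0.71), Il12rb2, a chain of the interleukin-12 receptor (-0.57), and Id2 (-0.50) were the others (edgeR, adjusted p = 0.011, 0.0095 and 0.026). Only Tbx21 among these 4 kept its call whichever library was left out: Zfp683 lost it without library 5 or 11, Il12rb2 without 6 or 11, and Id2 without 5, 6, 11 or 12. The median of the 16 was -0.14.

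Of 12 cytokines, chemokines and receptors that cytotoxic cells make beside granules, 11 were tested and all 11 were higher in effector cells of either genotype. Only 5 of these 11 passed the filter in naive libraries alone, and the other 6 were tested only because their effector counts are high. In KO effector cells 5 of the 11 were lower, where 1.72% of all tested genes were: Ccl5 (-0.38), Xcl1 (-0.69), Klrk1 (-0.53), Klrd1 (-0.68) and Slamf7 (-0.41), with edgeR adjusted p of 0.0031 to 0.037. Klrd1 and Klrk1 encode lectin-like receptors of NK and cytotoxic T cells. Klrk1 was the least stable, kept in 8 of 20 alternatives, and Klrd1 was kept in all 20. In naive cells 1 of the 11, Ccl5, was called higher in KO (1.88 ± 0.37, edgeR, adjusted p = 0.016), where 1.18% of all tested genes were called. It read 0.415 ± 0.178 CPM in WT and 1.52 ± 0.402 CPM in KO. Of the 16 regulators 2, Hopx (0.44) and Il2rb (0.30), were also called higher there (edgeR, adjusted p = 0.016 and 0.011). These naive calls were lost when single libraries were left out, 4 of the 12 for Ccl5, 3 for Hopx and 4 for Il2rb. For Ccl5, Hopx and Il2rb the KO effect also differed between cell types, by -2.25, -0.56 and -0.44 (edgeR, adjusted p = 0.019, 0.041 and 0.019), calls that 13, 8 and 14 of 19 alternatives kept. Among all tested genes 0.145% were called in that test of the difference.

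Markers of other cells that carry granule genes moved with some of these differences. Klrb1c, the NK1.1 antigen, and Zbtb16, the factor PLZF of innate-like T cells, summed to at most 0.0526 CPM in WT naive libraries and to 116 to 123 CPM in WT effector libraries. In KO effector libraries their sum was 73.6 to 94.6 CPM, below every WT effector library. Both genes were lower there (Klrb1c -0.47 and Zbtb16 -0.75, edgeR, adjusted p = 0.00076 and 0.024). Zbtb16 lost its call without library 7, 8, 9 or 11 (highest adjusted p = 0.13).

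A list of 7 NK cell markers, which shares Klrb1c, summed to 77.5 to 88.7 CPM in WT and 58.6 to 68.7 CPM in KO effector libraries. The difference of the sums lay mostly in Klrb1c: the other 6 markers summed to 4.30 to 9.37 CPM in WT and 5.86 to 7.56 CPM in KO, with overlap. Klre1 was also lower in every KO library, at 2.83, 3.36 and 5.22 CPM in WT and 2.67, 1.73 and 2.68 CPM in KO. It was not called (log2 fold change -0.72, edgeR, adjusted p = 0.13). Of the 5 tested markers of this list, 3 had a positive and 2 a negative log2 fold change. The list's NK-defining member Ncr1 was near 0, at 0.453 ± 0.351 CPM in WT and 0.758 ± 0.151 CPM in KO, Klra4 was at 0 in WT effector cells, and Klra8 stayed below 1 CPM. Klrb1c and Zbtb16 thus moved with the lower Nkg7, Ctsw and Fasl of KO effector cells, and their part in that result was not tested. The CD8 T cell sum went the other way, at 5.52 to 6.70 CPM in WT and 7.19 to 8.04 CPM in KO effector libraries. Its gene Cd8b1 was not called (log2 fold change 0.31, edgeR, adjusted p = 0.16), and any part of this sum was not tested either. In naive cells the NK list summed to 0.579 to 2.16 CPM in WT and 2.41 to 4.42 CPM in KO, and without Klrb1c to 0.526 to 2.16 and 2.20 to 4.08 CPM. It thus moved with the naive values of Nkg7 and Gzma, in which its part was likewise not tested.

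Regulatory T cell markers (Foxp3, Il2ra, Ctla4 and Ikzf2) summed to 1068 to 1247 CPM in WT and 1267 to 1481 CPM in KO effector libraries, without overlap. Foxp3 (0.35) and Ctla4 (0.33) were higher in KO (edgeR, adjusted p = 0.01 and 0.00076), and Foxp3 lost its call without library 6 or 11. The other lists were low. B cell markers reached 17.3 CPM at most, myeloid markers 29.9, the 2 matched gamma-delta T cell markers 12.2, granulocyte and mast cell markers 3.32 and platelet markers 4.89. In naive cells the myeloid sum was 2.84 to 12.7 CPM in WT and 12.9 to 22.7 CPM in KO, and the granulocyte sum 0.158 to 0.829 CPM in WT and 2.41 to 3.32 CPM in KO, so these too were above WT in every KO naive library. The same held for the B cell sum (1.95 to 3.28 CPM in WT, 4.02 to 5.48 CPM in KO) and the regulatory T cell sum (125 to 138 and 148 to 160 CPM). It also held for Klrb1c with Zbtb16 (at most 0.0526 CPM in WT, 0.256 to 0.425 CPM in KO). The CD8 T cell, gamma-delta T cell and platelet sums overlapped. Of the lists' marker genes Trat1, a T cell adaptor, was lower in KO effector cells (-0.53, edgeR, adjusted p = 6.9e-06) and in KO naive cells (-0.27, adjusted p = 0.011), where the call was lost without library 2, 7 or 9.

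**Figure D5:**
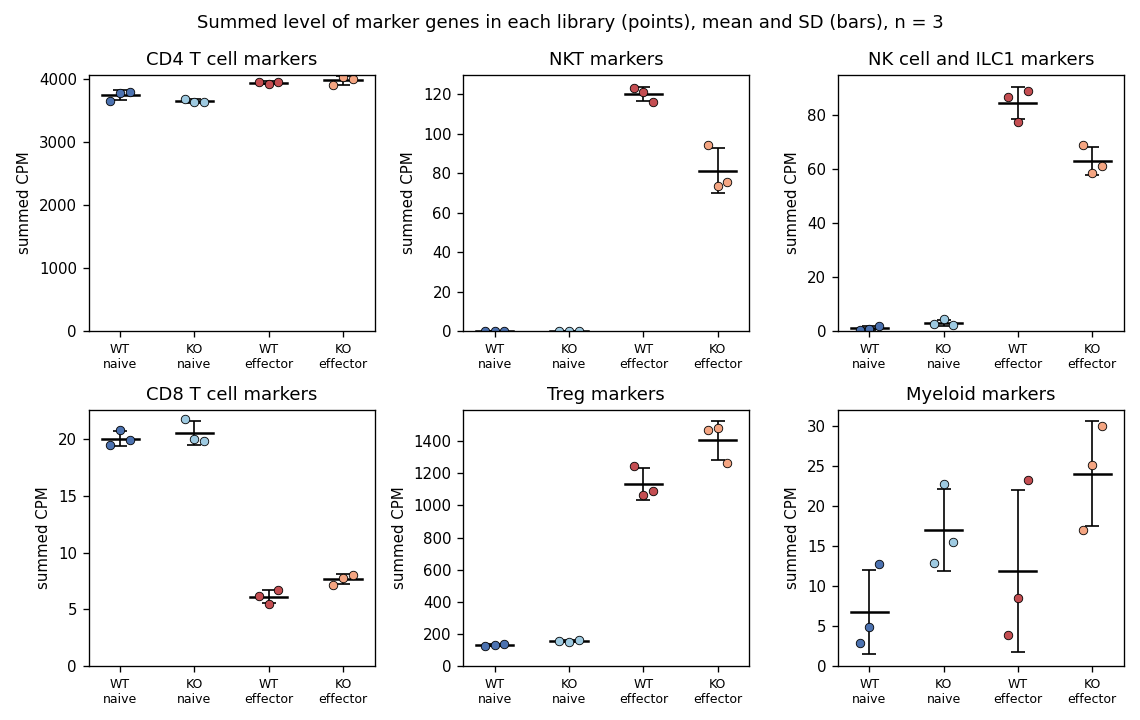
Summed CPM (vertical axis, a scale of its own in each panel) of marker genes of CD4 T, NKT, NK and ILC1, CD8 T, regulatory T and myeloid cells in each library; points are libraries, horizontal bars means and error bars SD, n = 3 per group. NKT and NK sums, which share Klrb1c, are near 0 in naive cells and lower in all KO than in all WT effector libraries. In the NK list this difference lies mostly in Klrb1c. The regulatory T cell and CD8 T cell sums are higher in all KO than in all WT effector libraries.

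Finally, the members were compared in how they varied between libraries of one group. Deviations from the group mean of log2 CPM were correlated between the 36 pairs of members over the 12 libraries, as a description, since libraries share their depth and their scaling. Pearson's r had a median of 0.17 and ran from -0.78 to 0.75, with 24 positive and 12 negative values. The highest was that of Nkg7 with Gzmb and the lowest that of Gzmk with Gzmm. Over the 6 effector libraries alone, where counts are higher, r of Nkg7 with Gzmb was 0.20, the median over pairs was 0.11 and the range ran from -0.94 (Nkg7 with Gzmk) to 0.86 (Gzma with Gzmm). Over all 12 libraries Gzmk had a negative r with each of the other 8 members, among them -0.62 with Gzma, which was -0.39 without library 4. Gzmk had 0 or 1 count in the naive libraries, so their deviations say little. Over the 6 effector libraries its r was 0.13 with Srgn and negative with the other members, among them -0.91 with Gzma. Gzma and Gzmm had 0.71 over all 12 libraries, and 0.42 without library 4. The values of r thus had both signs. Low naive counts and only 6 effector libraries allow no conclusion on whether the granule genes vary together.

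Among 9886 other genes with at least 5 CPM in their higher group, those whose deviations were most like each member over the 12 libraries were listed for the 7 members with at least 10 CPM. They were Rpf1 and Swt1 for Nkg7 (r of 0.947 and 0.946), Kdm8 and Zmat2 for Ctsw (0.954 and 0.929), and Ttl and Dock5 for Gzma (0.948 and 0.93). For Gzmb they were Klrc1 (0.903), a lectin-like receptor gene of cytotoxic cells, and Il9r (0.889), for Prf1 Prxl2a and Pomk (0.966 and 0.963), for Fasl Fam76a and Fam219a (0.916 and 0.903), and for Srgn Rpl7a-ps10 and Crem (0.96 and 0.932). With 12 libraries and this many genes searched, values this high describe these libraries only.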

How the data were processed

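Whole-number read counts per gene and FPKM values were taken from 2 deposited tables with the same 12 library columns, per the file headers. The FPKM values equal the counts divided by a gene length and a library factor. Per the submitters' processing notes, the tools were Picard, STAR and DESeq2 1.30.0, whose roles are not stated, and the build was GRCm38 (also called mm10). The mRNA library kit keeps strand, per the labels' protocols. Columns show cell type and genotype, by which they were grouped, and no replicate number.

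The analysis used edgeR 4.0.16 in R 4.3.3, with filterByExpr by group, TMM scaling and 1 robust quasi-likelihood model of all 12 libraries with a coefficient per group. P-values were adjusted over 15905 genes by the Benjamini-Hochberg method at 0.05. Alternatives used DESeq2 1.42.0, limma 3.58.1, other filters and scalings, and each library left out. In simulated counts the model recovered 89% (naive, 15722 genes) and 81% (effector, 15683 genes) of genes given a log2 difference of 0.5, and 100% and 99% of those given 1. Differences were given only to genes averaging at least 5 CPM in the WT cells compared. These shares therefore do not apply to members below that level, which were Nkg7, Gzma, Gzmb, Gzmk and Gzmm in naive cells and Gzmm in effector cells. The genes were drawn at random, so the shares are averages over genes of differing spread. They do not describe a gene that spreads as widely as Gzma, at 20.3 ± 10.1 CPM (SD, n = 3) in WT effector cells.

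Named genes are the members, Rinl, up to 6 called genes by p from each list and comparison, markers, and the 2 genes most like each member; genes that overlap or neighbour a member were named as such. The members and lists were chosen with earlier results of these data known. Of 135 list entries 132 were matched. Protein sequences were not analysed here, and one gene covered by the naming rule is left out of the text.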

Additional observations from a re-analysis of the deposited data

Results flagged for a closer look

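For Ctsw the KO effect differed between the cell types by a test of the difference itself. The log2 fold change of KO against WT was 0.16 in naive cells, where the libraries read 50.1, 47.9 and 58.2 CPM in WT and 60.3, 57.4 and 56.1 CPM in KO, and -0.46 in effector cells. The difference was -0.63 ± 0.093 (edgeR, adjusted p = 0.0027), from -0.72 to -0.57 over 19 alternatives with adjusted p from 1.2e-11 to 0.087.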

How the results depend on the processing

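No paired analysis was possible because the columns carry none of the replicate numbers of the sample titles. Over 880 fold changes of members under alternatives, 850 kept their direction and their side of the threshold, 16 passed it newly, 8 no longer passed and 6 changed sign. The sign changes were all in naive KO against WT: with single libraries left out the log2 fold change of Gzmk ran from -0.72 to 0.20 (positive without library 8), of Prf1 from -0.073 to 0.0088 (positive without library 9), of Fasl from -0.091 (without library 1) and -0.024 (without library 9) to 0.15, and of Srgn from -0.097 to 0.0052 (without library 7) and 0.023 (without library 3).

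Members called in naive KO against WT rose from 0 to 1 with DESeq2, 1 with no filter on low counts and 1 with limma on log2 of FPKM plus 0.1, and were 0 with each library left out. All genes called there numbered 187, and 501 with no filter, 528 with only the groups compared, and 40 and 57 with limma on log2 of FPKM plus 1 and plus 0.1; leaving out single libraries gave 66 (without library 8) to 255. In effector KO against WT the 3 members became 6 with no filter, 4 with DESeq2, 2 with limma at plus 1 and 1 with limma at plus 0.1. With single libraries left out they were 2 (without library 11) to 5 (without library 4). The 503 genes became 959 with no filter, 230 with only the groups compared, and 262 and 139 with limma at plus 1 and plus 0.1, and 194 (without library 11) to 662 with single libraries left out. In the difference of the KO effects the 1 member became 2 with DESeq2, 2 with no filter and 0 with limma at plus 0.1, and 1 to 3 (without library 4) with single libraries left out. With limma at plus 1 the count was also 1, but the member called there was not Ctsw. The 23 genes became 61 with DESeq2, 277 with no filter, 13 and 8 with limma at plus 1 and plus 0.1, and 10 (without library 8) to 85 (without library 4) with single libraries left out. Genes of the pathway lists called in effector KO against WT numbered 14, and 20 with no filter, 7 and 2 with limma at plus 1 and plus 0.1, and 7 (without library 11; 9 without library 6) to 20 (without library 4); in naive KO against WT they numbered 3, and 0 (without library 1) to 4, and in the difference of the KO effects 3, and 0 (without library 2) to 4. In effector against naive cells 9 members were called in WT and 8 to 9 in KO with single libraries left out, and 7 of the 7 left at a mean of at least 5 CPM in each. These counts of 9 include Gzmk, which was tested only through its effector counts. The mean of at least 5 CPM is taken over all 12 libraries. Nkg7, Gzma and Gzmb, which were near 0 in naive cells, reached it only through effector libraries, so it is no independent check of their rise. Causes were not tested.

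Gzmk and Gzmm gave no value at a mean of at least 5 CPM, and Gzmk none in naive libraries alone. DESeq2's scaling moved fold changes by at most 0.006 on the log2 scale. Levels near 1 CPM or below rest on few counts, so differences of Nkg7 and the granzymes in naive cells are limited by depth.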

Other observations

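Within 100 kb of the granule genes lay 40 other tested genes. In effector against naive cells of WT mice 57.5% of them were called, beside 56.2% of all tested genes, 14 in the direction of their member and 9 in the opposite one. Among the 14 were Cldnd2, Iglon5 and Esm1, which had no count in WT naive libraries. For Srgn, which was higher in effector cells, 3 of 5 tested neighbours were lower and none higher, and for Ctsw 4 of 18 were higher and 5 lower. Among all tested genes 30.2% were higher and 25.9% lower. Of the 5 tested genes within 100 kb of Nkg7, 4 were called higher, where 30.2% of all tested genes were. Vsig10l went from 0.461 to 6.33 CPM (log2 fold change 3.88, edgeR, adjusted p = 1.2e-11) and Etfb from 4.76 to 7.79 CPM (0.69, edgeR, adjusted p = 0.00022). The other two, Cldnd2 and Iglon5, had no count in WT naive libraries and averaged 1.22 and 2.14 CPM in WT effector ones, and they passed the low-count filter only through effector libraries. Both tested neighbours of Prf1 were lower in effector cells, where 25.9% of all tested genes were. They were Adamts14, at 19.6 CPM in WT naive and 0.626 CPM in WT effector cells (-5.00, edgeR, adjusted p = 2.3e-17), and Rpl27a-ps1 (-0.43, edgeR, adjusted p = 0.0088).

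Esm1, on the strand opposite to Gzmk, had no count in WT naive libraries and averaged 1.63 CPM in WT effector ones. In the granzyme cluster of Gzmb, Gzmc was the one other granzyme gene with enough counts to be tested, at 0.855 CPM in WT naive and 1.01 CPM in WT effector cells (log2 fold change 0.15, edgeR, adjusted p = 0.74). Neighbours were described with their values seen and without a test of the regions.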
